A study of Mus musculus with 4 samples.

Results

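Heat shock proteins and related chaperones are described here in single basal cells of mouse dorsal interfollicular epidermis. The 10 members were *Hspa1a*, *Hspa1b*, *Hspa5*, *Hspa8*, *Hsp90aa1*, *Hsp90ab1*, *Hspb1*, *Hspd1*, *Hspe1* and *Dnajb1*, which were chosen by name, and all 10 were found among the 24378 gene rows of each of the 4 tables. The cells came from female Ivl-CreERT2/R26-tdTomato mice at postnatal day 57, 2 mice by the study's account. In these mice the Involucrin (*Ivl*) promoter drives a tamoxifen-activated Cre that switches on the red protein tdTomato, so that labelling depends on that promoter and on recombination. Both sorted populations received tamoxifen, at 10 µg per g of mouse intraperitoneally, 2 days before isolation by the labels, while the study's methods give another dose. Traced cells are called Tom+ and non-traced cells Tom-, and each was captured on 2 Fluidigm C1 chips of 96 wells. In each sort, 1 sample title holds the number 146 and 1 the number 158. These numbers are called run tags here, run 1 and run 2, a name that the labels do not give. Whether a run tag stands for a run, a day, a set of chips or 1 mouse is not given in the sources used here. Epidermis was floated on trypsin for 2 h at 32 °C, stained and sorted as live CD49f+/LY6A+/CD34- cells before capture, so every library, Tom- included, passed through the same handling.

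Chaperones bind unfolded or partly folded proteins and help them to fold, to cross membranes or to be degraded. The HSP70 proteins work in cycles of ATP hydrolysis that HSP40 (J-domain) proteins start, and HSP90 proteins take over many of their clients. Under heat or other protein stress, heat shock factor 1 binds heat shock elements, arrays of inverted GAA units, and raises the transcription of stress-inducible members. Stress in the endoplasmic reticulum (ER) acts through separate elements in genes such as *Hspa5*. In the epidermis, the small heat shock protein encoded by *Hspb1* is known to rise as keratinocytes differentiate. For the comparisons within cells, *Hspa1a*, *Hspa1b*, *Dnajb1* and *Hsp90aa1* were taken as inducible and *Hspa8*, *Hsp90ab1*, *Hspa5*, *Hspd1* and *Hspe1* as constitutive, and *Hspb1*, which is both, was kept in neither group.

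The wells with at least 2000 unique molecular identifiers (UMIs, counts of single RNA molecules) on genes were kept as cells, 161 of 384. They numbered 20 and 48 in Tom- libraries 1 and 2 and 35 and 58 in Tom+ libraries 1 and 2, with library totals of 81630 to 305407 UMIs and medians per cell of 3225 to 4524.5. No column name was shared between libraries, and no 2 kept cells had the same counts. All 8 basal keratinocyte markers were present in the kept cells, at 28454 to 44447 CPM in sum (a gene's UMIs scaled to a common total of gene UMIs per library, the usual counts-per-million unit). Of the 3 bulge markers, *Cd34* and *Lgr5* were at 0. The third, *Krt24*, was at 10.8 CPM in Tom- library 2 and at 0 in the other libraries. The tdTomato transcript was seen in 16 of 35 and 29 of 58 Tom+ cells and in 3 Tom- cells, all of library 2. The summed infundibulum markers lay at 407 to 1791 CPM, those of T cells at 0 to 154, of Langerhans cells at 10.8 to 110, of sebaceous cells at 92.1 to 261, and those of melanocytes, fibroblasts and endothelium at 0 to 19.6, with *Mlana*, *Dct*, *Col3a1*, *Lum*, *Cdh5* and *Kdr* at 0. A count of 3 or more infundibulum, T-cell or Langerhans markers was reached by 19 cells, 10 of them in Tom+ library 2.

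The members are of several families and lie on several chromosomes (build GRCm38, which the submitters' processing notes name, with positions from GENCODE). *Hspa1a* (chr17:34969190-34972156) and *Hspa1b* (chr17:34956436-34959238) encode the stress-inducible cytosolic HSP70. They lie in tandem on the minus strand, 9951 bp apart. Their promoters are shown because *Hspa1b* was the member that differed with *Krt10* class and *Hspa1a* is its near copy. These bases lie before the transcripts and are not read by the libraries, which read the 5′ ends of the transcripts. The sequences are from RefSeq (GRCm38.p6) and cover the 250 bases before the start site, with heat shock elements of 2 units in capitals.
Hspa1a, chr17:34972157-34972406, minus strand: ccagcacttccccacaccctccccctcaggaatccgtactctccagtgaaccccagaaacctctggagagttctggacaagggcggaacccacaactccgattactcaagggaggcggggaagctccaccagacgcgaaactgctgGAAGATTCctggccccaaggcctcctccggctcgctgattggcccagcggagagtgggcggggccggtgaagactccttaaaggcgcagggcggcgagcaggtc
Hspa1b, chr17:34959239-34959488, minus strand: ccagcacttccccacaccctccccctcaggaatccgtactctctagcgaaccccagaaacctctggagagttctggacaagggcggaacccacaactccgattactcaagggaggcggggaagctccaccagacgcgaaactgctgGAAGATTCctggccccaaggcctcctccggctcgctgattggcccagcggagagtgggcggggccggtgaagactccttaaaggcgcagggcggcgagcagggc

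Over the 300 bases of both windows, which run 50 bases past the start, the pair differed at 4 positions, C44T, T47C, T249G and C276T (the *Hspa1a* base first, counted from 1 at the 5′ end of the window). The first 300 bases of their annotated transcripts differed at 3 positions, and 91.4% of 2729 aligned bases were identical over the whole transcripts. How reads that match both genes were assigned is not given in the sources used here, so the split of UMIs between *Hspa1a* and *Hspa1b* is uncertain, and their sum is given beside the single rows.

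*Hspb1* (chr5:135887919-135889563), shown because it was next to *Hspa1b* in its difference with *Krt10* class, held 2 such elements, which begin 117 and 97 bases before its RefSeq start.
Hspb1, chr5:135887669-135887918, plus strand: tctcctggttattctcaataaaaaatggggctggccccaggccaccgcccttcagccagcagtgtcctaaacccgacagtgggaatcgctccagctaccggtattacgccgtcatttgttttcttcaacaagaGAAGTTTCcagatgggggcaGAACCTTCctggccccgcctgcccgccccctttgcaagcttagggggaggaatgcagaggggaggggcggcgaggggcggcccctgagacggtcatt

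*Hspd1* and *Hspe1*, which encode the mitochondrial chaperonin HSP60 and its co-chaperonin HSP10, lie head to head on chromosome 1, and their annotated 5′ ends overlap. A RefSeq window of each holds the same array of heat shock units, and *Hspa5*, which encodes the ER chaperone BiP, holds an ER stress response element that begins 65 bases before its RefSeq start. Both sites are shown as the contrast between the heat shock and the ER stress letters, with the matched bases in capitals.
Hspd1 and Hspe1, chr1:55088054-55088081, plus strand: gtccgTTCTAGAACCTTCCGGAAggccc
Hspa5, chr2:34772020-34772048, plus strand: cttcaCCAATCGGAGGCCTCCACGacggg

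Of all 32851 RefSeq promoter windows, searched on both strands, GAANNTTC was in 7.86%, TTCNNGAA in 8.52%, their 3-unit overlap (GAANNTTC with another GAA 2 bases further on) in 0.603%, and the ER element, CCAAT and CCACG with 9 bases between them, in 0.119%. Windows were found for 7 of the 10 members, and not for *Hspa8*, *Hsp90aa1* and *Hsp90ab1*. The window of *Dnajb1*, which encodes an HSP40 partner of HSP70, held none of these heat shock letters.

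Each UMI here stands for the 5′ end of 1 molecule, so levels do not scale with transcript length, and they are given in CPM. Together the members took 0.702% ± 0.0273 (SD, n = 4 libraries) of gene UMIs. *Hsp90ab1*, the constitutive cytosolic HSP90, was the highest, at 3050 and 2086 CPM in Tom- libraries 1 and 2 and 2887 and 3114 in Tom+ libraries 1 and 2. It stood above every other member in all 4 libraries, and was seen in 155 of 161 cells when 2000 UMIs were drawn from each cell. The constitutive HSP70 *Hspa8* followed, at 919, 867, 776 and 900 CPM in the same order of libraries. *Hspa5* lay at 747, 656, 801 and 540 CPM, and *Hsp90aa1*, the inducible HSP90, at 600, 786, 674 and 625. These 2 genes were not ordered beyond the spread, since each was the higher in 2 of 4 libraries. *Hspa8* was above *Hspa5* in 3 of 4.

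*Hspb1* lay at 527, 991, 496 and 570 CPM, with Tom- library 2 high and the other libraries close together. *Dnajb1* lay at 772, 450, 458 and 511 CPM. Its high value in Tom- library 1 came to 25.4% from 1 cell with 16 of the 63 UMIs, and was 597 without that cell. *Hspe1*, at 245, 363, 312 and 357 CPM, was below *Dnajb1* in all 4 libraries. The inducible HSP70 genes were near the bottom of the order. *Hspa1b* lay at 110, 184, 331 and 187 CPM, the widest range of the members relative to its lowest value. *Hspd1* lay at 184, 163, 286 and 131, and *Hspa1a* was the lowest, at 98.0, 86.7, 134 and 111. For *Hspd1* and *Hspe1*, 5 and 6 processed pseudogenes are annotated, whose share of these UMIs is unknown.

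**Figure D1:**
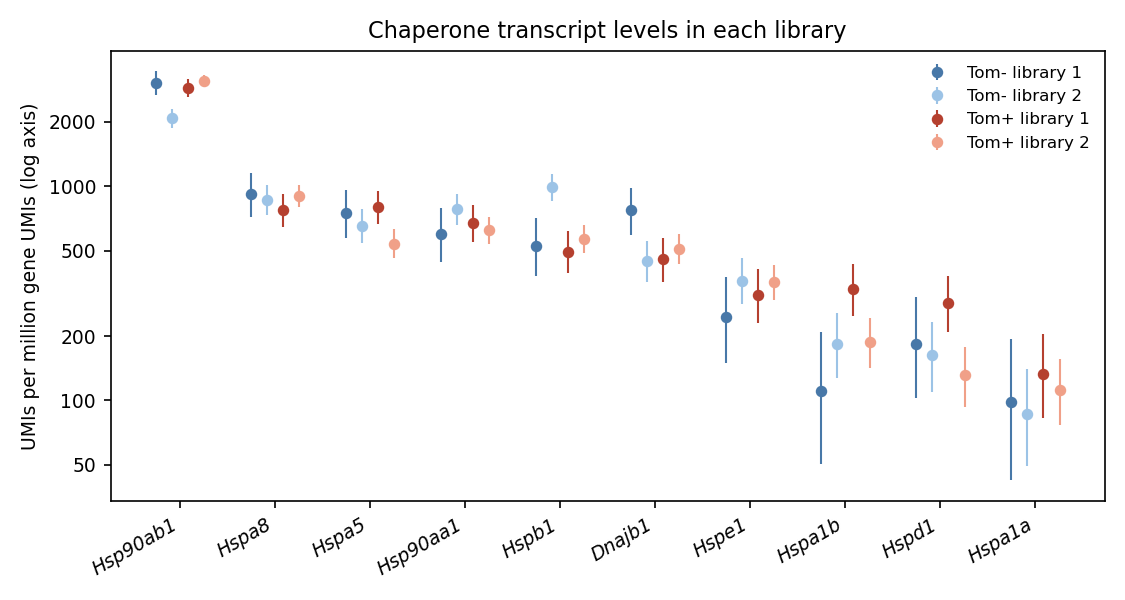
Level of each member in each library, in CPM on a log axis. Points are libraries and bars 95% Poisson intervals, which cover counting error only. *Hsp90ab1* lies between 2086 and 3114 and *Hspa1a* between 86.7 and 134, and for no member are both Tom+ libraries set apart from both Tom- libraries by more than the bars.

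Within libraries, the members differed in the spread of their UMIs over cells. The variance of thinned UMIs over cells was 2.46 times the mean for *Hspb1*, 2.27 for *Hspa5*, 2.25 for *Dnajb1* and 2.16 for *Hspa1b*, against a median of 1.36 over genes seen in at least 20% of cells. It was 1.18 times the mean for *Hspa1a*, 1.23 for *Hspe1* and 1.45 for *Hspa8*. The ratio falls towards that of pure counting for any gene with few UMIs. *Hspa1a* and *Hspe1* had means of 0.236 and 0.671 thinned UMIs per cell, and *Hspb1* 1.25. The low ratios of *Hspa1a* and *Hspe1* therefore do not show that cells carried them more evenly. In single cells *Hspb1* reached 12 UMIs, and *Hspa5* and *Dnajb1* 10 UMIs.

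At full depth, 31 cells held UMIs of both *Hspa1a* and *Hspa1b*, 17 of *Hspa1a* alone, 35 of *Hspa1b* alone and 78 of neither. The total was 79 *Hspa1a* and 152 *Hspa1b* UMIs, so the inducible HSP70 genes were below detection in many cells at this depth. Over the 161 cells, with levels centred per library, the pair had a Pearson r of 0.256, the highest among the members, followed by *Hspb1* and *Dnajb1* at 0.210. These are descriptions of sparse counts that share libraries, and the lowest value was -0.125 for *Hspa1a* and *Hsp90ab1*.

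In the draw of UMIs used here, inducible UMIs made up a similar share of chaperone UMIs in every library. Of the summed inducible and constitutive UMIs, each cell thinned to 2000, the inducible genes took 23.6% in Tom- library 1 (95% Clopper-Pearson interval 18.7% to 29.1%), 25.2% in Tom- library 2 (21.6% to 29.1%), 23.6% in Tom+ library 1 (19.7% to 27.9%) and 23.0% in Tom+ library 2 (20.1% to 26.2%). The mean was 23.9% ± 0.956 (SD, n = 4 libraries). Tom+ was 1.11 percentage points below Tom-, 23.3% against 24.4%, and the difference was not beyond the spread between libraries (exact two-sided permutation test, p = 0.667, where 2 against 2 libraries allow no p below 0.333). Leaving *Hsp90aa1* out of the inducible genes turned the difference to 0.314 points above Tom-. The value also depends on which UMIs were drawn: over 20 other thinning draws it ran from -5.88 to 0.80 points and was above 0 in 1 of 20. All these intervals cover counting error only.

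Per cell, constitutive UMIs exceeded inducible UMIs almost throughout. The median was 2 to 3 inducible UMIs and 8 to 11 constitutive UMIs per 2000 in the 4 libraries. The 2 groups were not matched in level, as *Hsp90ab1* alone had a mean of 5.30 UMIs per 2000 over the 161 cells. Inducible UMIs outnumbered constitutive ones in 9 of 161 cells, 17 cells had no inducible UMI and 1 had no constitutive one. The cell with most inducible UMIs, a Krt10- cell (the class is defined below) of Tom- library 1, held 16, against 10 in the next cell, and 10 of the 16 were *Dnajb1* and 5 *Hsp90aa1*. The inducible pool was made up differently in that library. *Dnajb1* was 50.0% of it, against 26.5%, 28.2% and 36.0% in Tom- library 2 and Tom+ libraries 1 and 2. *Hsp90aa1* was 39.1%, 53.7%, 42.7% and 41.1% of the pool in the 4 libraries.

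**Figure D2:**
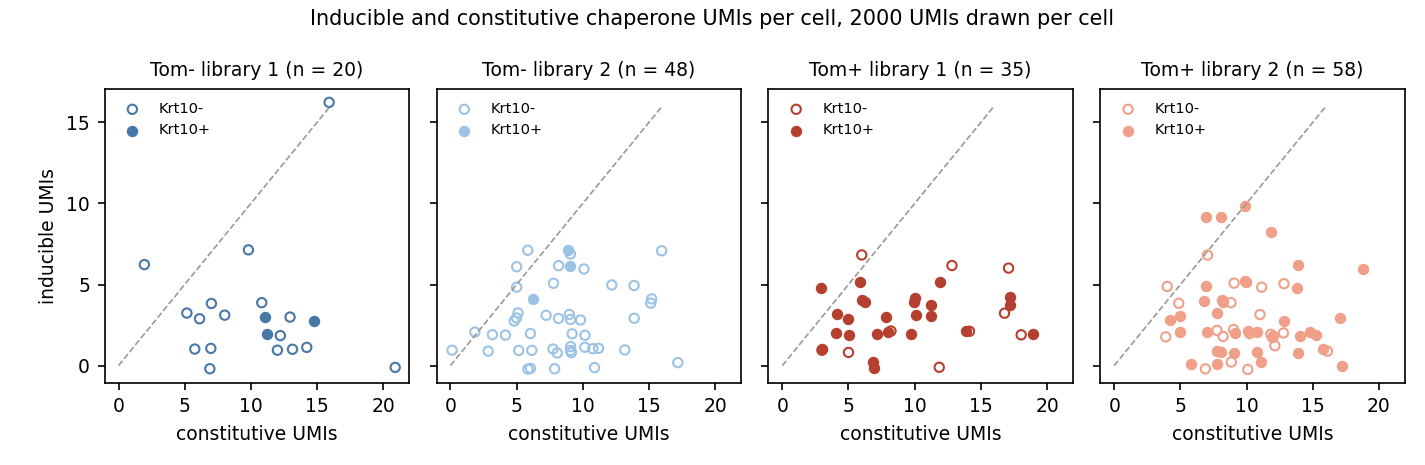
Inducible against constitutive chaperone UMIs of each kept cell, out of 2000 UMIs drawn per cell and with a small random shift of the points, in 1 panel per library. Open circles are Krt10- and filled circles Krt10+ cells, and the dashed line marks equal numbers. Most cells lie below the line in every library, and 9 of 161 lie above it.

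To ask whether the chaperones differed with lineage tracing, UMIs were summed per library and Tom+ was compared with Tom- over all genes (edgeR quasi-likelihood test, Benjamini-Hochberg adjustment). Of the 10 members, 0 passed the test, where 1.24% of the 3070 genes tested did (38 genes, 0.847% higher and 0.391% lower, and 302 at an unadjusted p under 0.05). DESeq2 called 0 of the 9 members to which it gave an adjusted p, with none given for *Hspa1a*. The inducible HSP70 genes had the highest log2 fold changes, 0.64 ± 0.40 (SE) for *Hspa1b* (1.56-fold, 95% interval 0.871 to 2.79, adjusted p = 0.693) and 0.36 ± 0.46 for *Hspa1a*, and the sum of both rows gave 0.56 ± 0.35 (adjusted p = 0.689). *Hspa1b* was 331 and 187 CPM in Tom+ and 110 and 184 in Tom- libraries, so that Tom+ library 2 and Tom- library 2 were alike, and its log2 fold change ran from 0.28 without Tom+ library 1 to 1.25 without Tom- library 2. The share of Krt10+ cells, defined below, moved with the sort, at 25 of 35 and 37 of 58 Tom+ cells and 3 of 20 and 3 of 48 Tom- cells, and the summed basal markers were at 30233 and 28454 CPM in Tom+ and 40292 and 44447 in Tom- libraries. Their part in these values was not tested.

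*Hspb1* had the lowest log2 fold change, -0.59 ± 0.32 (adjusted p = 0.593), which rested on Tom- library 2 and was 0.09 without it. The values were -0.32 ± 0.31 for *Dnajb1*, -0.16 ± 0.29 for *Hsp90aa1*, -0.12 ± 0.27 for *Hspa8* and -0.11 ± 0.29 for *Hspa5*. They were 0.06 ± 0.34 for *Hspe1*, 0.18 ± 0.41 for *Hspd1* and 0.21 ± 0.24 for *Hsp90ab1*, whose interval of 0.816-fold to 1.63-fold was the narrowest. The median over the members was -0.03, beside -0.01 over all genes tested. In simulated libraries of these depths, 12.3% of genes changed 2-fold and 83.1% of those changed 4-fold were recovered for this comparison, so changes below 2-fold were mostly not detectable.

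**Figure D3:**
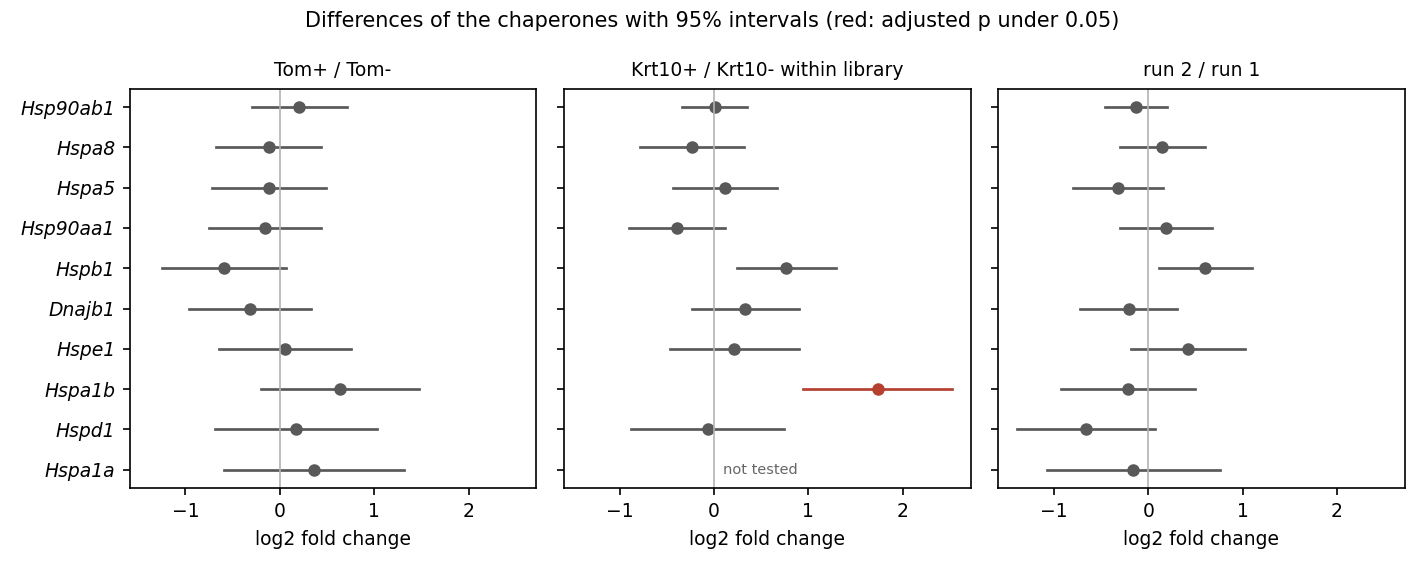
Log2 fold changes of the members (points) with 95% intervals (lines) from the edgeR fits across all genes, for Tom+ against Tom-, Krt10+ against Krt10- within libraries, and run 2 against run 1. Red marks an adjusted p under 0.05, which only *Hspa1b* reached, between Krt10 classes, and *Hspa1a* was not tested there.

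Keratin 10 marks basal cells that have begun to differentiate. A cell was called Krt10+ with at least 6 *Krt10* UMIs of 2000 drawn, which follows from the study's threshold on a log scale of counts, and this gave 68 Krt10+ and 93 Krt10- cells. UMIs were summed per class and library, and the classes were compared within libraries. *Hspa1b* was higher in Krt10+ cells. It lay at 77.1, 140, 172 and 73.0 CPM in the Krt10- cells of Tom- libraries 1 and 2 and Tom+ libraries 1 and 2, and at 238, 782, 410 and 239 in the Krt10+ cells of the same libraries. Within each library the Krt10+ value was the higher. The log2 fold change was 1.73 ± 0.37 (SE), a 3.32-fold difference (95% interval 1.92 to 5.75, edgeR adjusted p = 0.00663), and the sum of the *Hspa1a* and *Hspa1b* rows gave 1.52 ± 0.33 (adjusted p = 0.00704). It was 1 of 9 members tested that passed, where 6.72% of the 1206 genes tested did, and 3.98% in the same direction.

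The counts behind this are small. The Krt10- sums held 5, 24, 9 and 7 *Hspa1b* UMIs and the Krt10+ sums 4, 10, 43 and 50, the first 2 from 3 cells each, and in Tom- library 1 all 4 came from 1 cell. The filter on low counts was passed by all 4 Krt10+ sums but by 2 of the 4 Krt10- sums, so that *Hspa1b* entered the test through the class in which it was high. When as many genes were kept by their mean over all sums, the log2 fold change was 1.73 ± 0.37 (edgeR adjusted p = 0.00569). That mean does not use the class labels but is raised by the Krt10+ sums, so *Hspa1b* may still have entered through them. With no filter the log2 fold change was 1.52 ± 0.51 and did not pass (adjusted p = 0.352), and in the Tom+ libraries alone it was 1.44 ± 0.39 (adjusted p = 0.108). Leaving out each library gave 1.47 to 1.91, each past the threshold. Without the cells that carried 3 or more markers of another type it was 1.67 ± 0.39 (adjusted p = 0.00549). These fits used the same kind of filter on low counts. *Hspa1b* may therefore have entered them through its Krt10+ sums as well, and they do not free the result from that selection.

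*Hspa1a* did not pass the filter. It lay at 108, 64.0, 95.5 and 52.2 CPM in Krt10- cells and at 59.4, 391, 153 and 138 in Krt10+ cells, from 1 to 29 UMIs per sum, so that it was higher in Krt10+ cells in 3 of 4 libraries. In the fit with genes kept by their mean, its log2 fold change was 1.14 ± 0.55 (adjusted p = 0.278).

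The share of cells that held these transcripts was set less clearly apart. An *Hspa1a* or *Hspa1b* UMI was found among 2000 in 17.6%, 26.7%, 40.0% and 23.8% of Krt10- cells of Tom- libraries 1 and 2 and Tom+ libraries 1 and 2, and in 33.3%, 100%, 40.0% and 48.6% of Krt10+ cells, and the 95% Clopper-Pearson intervals of the classes overlapped in all 4 libraries. Over all libraries, 12 cells had at least 3 such UMIs, of which 10 were Krt10+ and 8 Tom+. Median UMIs per cell were 3513, 3224, 4425.5 and 4041 in Krt10- and 4142, 3606, 3925 and 4914 in Krt10+ cells. Mitochondrial transcripts were at medians of 6.25%, 7.10%, 4.96% and 5.72% in Krt10- and 6.38%, 4.45%, 5.35% and 5.52% in Krt10+ cells. The summed basal markers were lower in Krt10+ cells, at 29190, 22674, 19503 and 20341 CPM against 43173, 46068, 51724 and 46184 in Krt10- cells, and the summed infundibulum markers lay at 178, 156, 295.5 and 1919 against 1188, 1089, 630 and 1512. The summed sebaceous markers were higher in Krt10+ cells in all 4 libraries, as *Hspa1b* was, at 238, 391, 305 and 186 CPM against 169.7, 69.9, 172 and 146. Those of T cells lay at 0, 0, 0 and 215 against 0, 134, 38.2 and 20.9, and those of Langerhans cells at 59.4, 0, 66.7 and 28.6 against 123, 11.6, 0 and 125. The part of depth, RNA quality and cell makeup in the result was not tested.

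**Figure D4:**
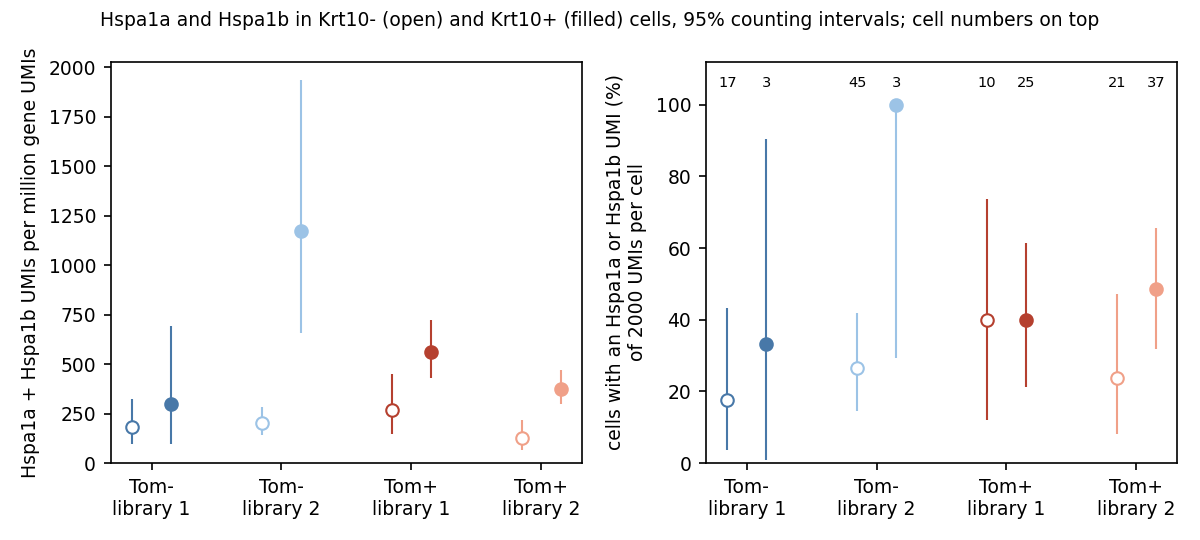
Left, summed *Hspa1a* and *Hspa1b* level in CPM in the Krt10- (open) and Krt10+ (filled) cells of each library, with 95% Poisson intervals. Right, percentage of cells with at least 1 of these UMIs among 2000, with 95% Clopper-Pearson intervals and the number of cells on top. The level is higher in Krt10+ cells in each library, while the share of cells is 40.0% in both classes of Tom+ library 1.

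*Hspb1* came next among the members. It lay at 463, 908, 458 and 334 CPM in Krt10- cells and at 773, 2111, 515 and 678 in Krt10+ cells, higher in all 4 libraries. The log2 fold change of 0.77 ± 0.25 (1.70-fold, interval 1.18 to 2.45) did not pass the adjusted threshold (edgeR adjusted p = 0.0806). The highest value was that of a single cell, which held all 27 *Hspb1* UMIs of the Krt10+ sum of Tom- library 2, and without that library the log2 fold change was 0.64. In cells with at least 5000 UMIs the log2 fold change of *Hspb1* was 1.60 ± 0.35 (edgeR adjusted p = 0.0175), and *Hspa1b* was not tested there. The 3 Krt10+ cells of each Tom- library had median UMIs of 4142 and 3606. At most a single one of each was thus left at that cut-off. The cell with all 27 *Hspb1* UMIs kept 8 of them when thinned to 2000 UMIs. A cell of 3606 UMIs or fewer would keep more on average, so it was most likely the largest of its 3 cells. That largest cell held more than 5000 UMIs. In Tom- library 2, the Krt10+ value at that cut-off therefore most likely rested on this single cell.

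The other members did not pass. Their log2 fold changes were 0.33 ± 0.27 for *Dnajb1*, 0.21 ± 0.32 for *Hspe1*, 0.11 ± 0.26 for *Hspa5* and 0.01 ± 0.16 for *Hsp90ab1*, for which a difference outside 0.789-fold to 1.28-fold lay beyond the 95% interval. They were -0.07 ± 0.38 for *Hspd1*, -0.23 ± 0.26 for *Hspa8* and -0.39 ± 0.24 for *Hsp90aa1*. The sign for *Hsp90ab1*, *Hspa5* and *Hspd1* turned under several settings given in the closing section. The median over the 9 members was 0.11, beside -0.02 over all genes tested.

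The inducible share of chaperone UMIs was not set apart between the classes beyond the spread of libraries. Krt10+ cells had 17.8%, 41.5%, 24.9% and 23.5% in Tom- libraries 1 and 2 and Tom+ libraries 1 and 2, and Krt10- cells had 24.8%, 23.9%, 21.0% and 21.96%. The difference was 4.01 percentage points ± 10.2 (SD, n = 4 libraries), above 0 in 3 of 4 libraries (exact sign-flip permutation test, two-sided p = 0.625, smallest possible 0.125). The widest differences, -7.00 and 17.6 points, were those of the Tom- libraries, with 3 Krt10+ cells each, and those of the Tom+ libraries were 3.94 and 1.56 points. Without Tom- library 2 the mean fell below 0, to -0.503 points, and over 20 other thinning draws it ran from -0.158 to 6.79 points and was above 0 in 19 of 20.

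To ask whether the class difference itself differed between the sorts, an interaction was tested on the same sums. None of the 9 members passed, and 0% of the 1206 genes did (0 genes by edgeR, 57 at an unadjusted p under 0.05, with no other tool run). For *Hspa1b* the class difference in Tom+ minus that in Tom- was -0.54 ± 0.73 on the log2 scale (95% interval -2.14 to 1.06, edgeR adjusted p = 0.938), an interval too wide to tell the sorts apart.

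Between the 2 runs, 0 of 10 members passed, where 0.423% of 3070 genes did (13 genes by edgeR, 0.195% higher and 0.228% lower, 274 at an unadjusted p under 0.05, and 0 genes by DESeq2). Run tag, chip and possibly mouse cannot be told apart here. *Hspb1* had the highest log2 fold change for run 2 against run 1, 0.61 ± 0.25 (adjusted p = 0.392), and was higher under run 2 in both sorts, 991 against 527 CPM in Tom- and 570 against 496 in Tom+ libraries. *Hspd1* had the lowest, -0.66 ± 0.37 (adjusted p = 0.628), with 163 against 184 in Tom- and 131 against 286 in Tom+ libraries. For *Hspb1*, the Tom- library of run 2 stood apart from the other 3 libraries.

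The members' partners were followed in lists of other chaperones and stress genes. With lineage tracing, 0 of 21 tested cytosolic HSP70, HSP40 and HSP90 partners, 0 of 14 ER chaperones and unfolded protein response genes, 0 of 7 mitochondrial chaperones and 0 of 11 subunits of the chaperonin CCT and prefoldin passed, nor did *Hspb8*, the small heat shock protein tested (0.18 ± 0.37), or the heat shock factor binding protein *Hsbp1* (-0.05 ± 0.36). Their medians were -0.08, -0.26, 0.23 and 0.00, beside -0.01 over all genes. Among the partners, *Bag1*, a nucleotide exchange factor of HSP70, was 191 and 102 CPM in Tom+ and 36.8 and 21.7 in Tom- libraries (log2 fold change 2.32 ± 0.61, edgeR adjusted p = 0.0792). The Tom- values of *Bag1* stand for few UMIs, since these libraries held 81630 and 184578 UMIs in all. *Stip1*, which bridges HSP70 and HSP90, had 0.98 ± 0.53, and 0.48 and 2.53 without Tom- library 1 and 2.

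In the ER list, *Serpinh1*, the collagen chaperone HSP47, was 82.7 and 52.4 CPM in Tom+ and 306 and 146 in Tom- libraries (log2 fold change -1.74 ± 0.46, edgeR adjusted p = 0.0792), and *Herpud1*, which takes part in ER-associated degradation, had 1.00 ± 0.54. Both *Bag1* and *Serpinh1* missed the threshold. With the run tag as a replicate block both passed (edgeR adjusted p = 0.00952 for *Bag1* and 0.00477 for *Serpinh1*), and each was also called under 3 other alternatives. The mitochondrial *Grpel2* and *Trap1* had 0.65 ± 0.56 and 0.43 ± 0.55, and the chaperonin subunits *Cct4* and *Cct6a* had -0.86 ± 0.37 and 0.68 ± 0.43.

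Of the 19 immediate early genes, which cells induce within minutes of many stimuli, tissue dissociation among them, 2 fell in Tom+ and 0 rose, where 0.391% of genes fell. *Cyr61*, a secreted matrix protein, was 458 and 452 CPM in Tom+ and 1335 and 1658 in Tom- libraries (log2 fold change -1.77 ± 0.28, edgeR adjusted p = 0.00101). *Ier3* fell as well (-1.48 ± 0.37, adjusted p = 0.0469), and this call was lost under 10 of 13 alternatives. *Dusp1* and *Nr4a1* had -0.80 ± 0.25 and -0.76 ± 0.28 and missed the threshold, but passed with the run tag as a replicate block (edgeR adjusted p = 0.00208 and 0.0490), and the median of the list was -0.35.

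Between Krt10 classes, 0 of 4 tested cytosolic partners, 0 of 10 ER genes and 0 of 9 chaperonin and prefoldin subunits passed, nor did *Hspa9*, the one mitochondrial chaperone tested (-0.05 ± 0.51), *Hspb8* (0.56 ± 0.37) or *Hsbp1* (-0.42 ± 0.41). The medians of the 3 lists were -0.21, -0.11 and -0.03, beside -0.02 over all genes. *Serpinh1* again came close, at 309, 157, 229 and 125 CPM in the Krt10- cells and 297, 0, 9.53 and 19.1 in the Krt10+ cells of Tom- libraries 1 and 2 and Tom+ libraries 1 and 2 (log2 fold change -2.24 ± 0.67, adjusted p = 0.0567), and 8 of 15 alternatives called it. The low *Serpinh1* values in Krt10+ cells stand for few UMIs, as these sums held 16821, 12790, 104907 and 209530 UMIs in all. *Dnaja1* and *Dnajc8*, both J-domain proteins, had -0.58 ± 0.48 and -0.33 ± 0.49. The ER disulfide isomerase *Pdia4* had 1.04 ± 0.55, and *Cct2* and *Pfdn5* had 0.62 ± 0.38 and -0.49 ± 0.32.

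Of 18 immediate early genes tested between the classes, *Ier3* (-1.95 ± 0.44, edgeR adjusted p = 0.0102) and *Cyr61* (-1.70 ± 0.41, adjusted p = 0.0164) fell in Krt10+ cells and 0 rose, where 2.74% of genes fell. The call was lost under 4 of 19 alternatives for *Ier3* and under 3 of 21 for *Cyr61*. *Socs3* had -0.79 ± 0.38 and *Myc* 0.69 ± 0.39. Between runs, 0 genes of any of these lists passed. Within single libraries, summed immediate early UMIs and summed inducible chaperone UMIs per cell were correlated, both from thinned counts and as ln(sum + 1). Pearson correlations were 0.293 and 0.0830 in Tom- libraries 1 and 2 and 0.538 and 0.0436 in Tom+ libraries 1 and 2 (20, 48, 35 and 58 cells). The values varied from library to library, higher under run 1 than under run 2, and describe cells that share a library.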

How the data were processed

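The authors made 5′ STRT libraries on Fluidigm C1 chips and deposited them as raw whole-number UMI counts, not normalized, for each gene in each well, with spike-in and reporter rows that were left out here. The submitters' processing notes list mm10 and GRCm38. Aligner, annotation and strand use in counting are not given in the sources used here. Columns were mapped by name to the 4 libraries, whose totals are in the report. Wells with at least 2000 gene UMIs were kept, and counts were thinned to 2000 UMIs (seed 1) for shares per cell and for the Krt10 class. UMIs were summed per library or per library and class and tested with edgeR 4.0.16 in R 4.3.3 (quasi-likelihood test after TMM scaling and its filterByExpr filter, p-values adjusted by Benjamini-Hochberg over all genes tested, threshold 0.05), with the sort added for the run and the library for the class comparison. The procedure was tested on simulated data. For Krt10 class, 57.9% of 2-fold and 98.0% of 4-fold changes were recovered among 1070 genes. Cells are not replicates, and p-values measure only the spread between these libraries, which may be technical. Alternatives included DESeq2 1.42.0, other filters and minimum counts, other seeds and left-out libraries. Intervals were computed with SciPy 1.17.1.

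The members and lists were chosen with earlier results of these data known. Named genes are the 10 members, the genes past the threshold and up to 4 with the largest log2 fold change of each list, of which the 2 largest are given, and the 8 genes most correlated with the inducible sum. *Pfdn6*, *Trdc* and *Trbc2* were not matched. RefSeq and GENCODE vM21 gave sequences and positions.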

Additional observations from a re-analysis of the deposited data

How the results depend on the processing

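No member passed between the sorts, the runs or in the interaction under any alternative run. Of 864 values under alternatives, 734 were rated the same, 6 of them with no adjusted p from DESeq2. For a log2 fold change this means the same direction and side of the threshold, and many were of genes not called. Counts of genes called and inducible shares are among these values. Between Krt10 classes, 54 and 115 genes called beside 81 were still rated the same. The alternatives with other cells by marker, summed *Hspa1* rows, genes kept by their mean and the *Krt10* row left out were chosen after seeing the data. Genes called between the sorts, 38 with 26 higher and 12 lower, were 8 with at least 5000 UMIs per cell, 24 in thinned counts, 116 with the run as a replicate block (0 of them members) and 27 to 65 with each library left out, the highest without Tom- library 1. The block pairs libraries by the run tag of their titles, which the labels do not tie to a mouse, litter or day. Without a filter on low counts the split was 34 and 9, and for the runs 14 and 2 in place of 6 and 7. Dropping the filter moved the median of all genes by 0.14, -0.16 and 0.12 on the log2 scale for sort, class and run. Genes called between Krt10 classes, 81, were 30 with at least 5000 UMIs, 45 thinned, 52 in Tom+ alone, 122 under thinning seed 2 and 14 at a cut-off of 1 *Krt10* UMI. Members called there were 0 without a filter, thinned, in Tom+ alone and at that cut-off, in thinned counts and at that cut-off because *Hspa1b* was not tested. The interaction called 0 to 1 genes with each library left out (1 without Tom+ library 2) and 1 at that cut-off. The runs called 0 genes with at least 1000 or 5000 UMIs, thinned, under the DESeq2 Wald test and without marker-bearing cells, and 2 without the top 5% of cells. A run difference with a library left out has no residual degrees of freedom and was not run.

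The Tom+ minus Tom- inducible share became 0.314 points without *Hsp90aa1* and 0.0231 as a mean per cell, and ran from -5.88 to 0.80 over 20 thinning draws (1 above 0). The Krt10 difference ran from -0.503 to 7.69 with each library left out and from -0.158 to 6.79 over the draws (19 above 0). Signs that turned were all of uncalled values, and the cause was not tested. Between sorts they were, without a filter, *Hspa5* 0.021, *Hspa8* 0.025 and *Hsbp1* 0.090. With at least 5000 UMIs they were *Hspa5* 0.12, *Hsbp1* 0.19 and *Hspb8* -0.00066, without marker-bearing cells *Hspa5* 0.036, thinned *Hspd1* -0.34 and *Hspb8* -0.080, and without the top 5% *Hspd1* -0.11. With each library left out, *Hspa5* ran from -0.34 to 0.15, *Hspa8* from -0.25 to 0.040, *Hsp90aa1* from -0.38 to 0.18, *Hspb1* from -0.98 to 0.095, *Hspd1* from -0.37 to 0.68, *Hspe1* from -0.20 to 0.53, *Dnajb1* from -0.59 to 0.017, *Hspb8* from -0.091 to 0.50 and *Hsbp1* from -0.15 to 0.056.

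Between Krt10 classes, *Hspa5* was -0.071 without a filter, -0.42 with at least 1000 UMIs, -0.23 without the top 5%, -0.30 thinned, -0.12, -0.025, -0.11 and -0.36 under seeds 2, 4, 5 and 6, -0.10 at the cut-off of 1 and -0.12 to 0.39 with each library left out. *Hspa8* was 0.18 with at least 5000 UMIs and 0.10 at that cut-off. *Hsp90ab1* was -0.031 with DESeq2 size factors, -0.21 without a filter, -0.057 and -0.014 with at least 1000 and 5000 UMIs, -0.021 without the top 5%, -0.038 under the Wald test, -0.048, -0.030, -0.012 and -0.029 under seeds 2, 3, 5 and 6 and -0.056 to 0.035 with each library left out. *Hspd1* was 0.79 with at least 1000 UMIs, 0.29 without the top 5%, 0.069 without marker-bearing cells, 0.074, 0.078 and 0.40 under seeds 2, 4 and 6 and -0.20 to 0.17 with each library left out. *Hspe1* was -0.26 with at least 5000 UMIs, -0.090 and -0.31 under seeds 5 and 6, -0.073 at that cut-off and -0.0057 to 0.31 with each library left out. *Dnajb1* was -0.030 in Tom+ alone and -0.073 under seed 6, *Hsbp1* 0.050 with at least 1000 UMIs and *Pdia4* -0.21 in Tom+ alone. *Hspa9* was 0.28 without the top 5%, 0.29 in Tom+ alone, 0.017, 0.092, 0.029 and 0.091 under seeds 2, 4, 5 and 6 and -0.42 to 0.35 with each library left out.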

Other observations

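The genes whose levels per cell were most like the summed inducible chaperones (thinned ln(UMI + 1), centred per library, 161 cells, 1107 genes outside the members with a UMI in at least 20% of cells) were *Ctnnd1* (Pearson r 0.362), which encodes the junction protein p120 catenin, the AP-1 factor gene *Fosl2* (0.355), the cytoskeletal genes *Actg1* (0.278) and *Ezr* (0.257), the mRNA decay factor gene *Zfp36l2* (0.266), the splicing factor gene *Tra2b* (0.258), the translation factor gene *Eif4g2* (0.256) and *Itpkc* (0.255). All 8 had a positive r in each of the 4 libraries. For *Ctnnd1* the values ran from 0.162 to 0.803 and for *Fosl2* from 0.250 to 0.713, while *Tra2b* stayed between 0.221 and 0.276. These are the highest of 1107 values in sparse counts and are given as a description without a test.

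Along ranges of *Krt10* level the share of cells with an *Hspa1a* or *Hspa1b* UMI among 2000 followed no common order. In Tom+ library 2 it was 0 of 2 cells (95% Clopper-Pearson interval up to 84.2%) without a *Krt10* UMI, 26.3% of 19 cells with 1 to 5 and 48.6% of 37 cells with 6 or more. In Tom- library 2 it was 21.6% of 37 cells, 50.0% of 8 cells and 3 of 3 cells. In Tom- library 1 it was 33.3% of 9 cells, 0 of 8 cells (up to 36.9%) and 1 of 3 cells, and in Tom+ library 1 it was 2 of 8 cells, 2 of 2 cells and 40.0% of 25 cells.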
